A study of Mus musculus with 15 samples.

Results

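Among 15 mouse leukaemias, 7 with a high level of Ltf, the gene of the neutrophil granule protein lactoferrin, were set against 8 with a low level. A tumour's Ltf value was the median over the 21 probesets that name only Ltf, as a log2 intensity, and tumours above 10.8 formed the Ltf-high group. The Ltf-high group holds tumor_31, tumor_9500, tumor_29, tumor_9509, tumor_9514, tumor_36 and tumor_9492, and the Ltf-low group tumor_9529, tumor_9523, tumor_26, tumor_33, tumor_9520, tumor_9495, tumor_9504 and tumor_9508. The members were thus chosen by the measured Ltf intensity. Both groups share strain (Bl/6 Taconic), tissue (spleen) and disease (acute promyelocytic leukaemia, APL) in the labels, and all were profiled on Affymetrix Mouse Exon 1.0 ST arrays. The genotype, the treatment and the age of the mice are not given in the sources used here, and no healthy spleen was analysed here. Whether each tumour arose in an animal of its own is not stated. P-values therefore cover the spread among these arrays only, which can be technical in part.

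Neutrophils fill their granules in sequence. Primary granule proteins such as myeloperoxidase are made at the promyelocyte stage, secondary granule proteins such as lactoferrin at the myelocyte stage that follows, and tertiary granule proteins such as gelatinase later still, before the receptors of the mature cell. APL is a leukaemia of cells held at the promyelocyte stage, and lactoferrin binds iron and is a textbook sign that a cell has passed beyond it. In a whole spleen, fewer cells of a type and less RNA per cell cannot be told apart.

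The groups were drawn from Ltf on the same arrays that were then compared, so each test below asks whether another gene varied with Ltf, not what a condition did. A pair of arrays, tumor_9509 and tumor_9514, differed from the rest. Their mutual correlation across genes was 0.964, against at most 0.949 with any of the others, and their median intensity was 108 against 120 to 129 elsewhere. Both are Ltf-high, so results are given with them and, for 13 tumours, without them. Tumour numbers have 2 digits in 3 Ltf-high and 2 Ltf-low tumours and 4 digits in 4 and 6. The labels do not say what the digits mean, and differences within each class are given for the main results.

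In the Ltf-high group the Ltf value was 12.24 in tumor_31, 11.90 in tumor_9500, 11.52 in tumor_29, 11.29 in tumor_9509, 11.14 in tumor_9514, 11.04 in tumor_36 and 10.98 in tumor_9492. In the Ltf-low group it was 10.64 in tumor_9529, 10.36 in tumor_9523, 10.08 in tumor_26, 9.93 in tumor_33, 9.81 in tumor_9520, 9.71 in tumor_9495, 8.36 in tumor_9504 and 7.67 in tumor_9508. The values run without a wide gap across the threshold, with 10.98 just inside it and 10.64 just outside, and only tumor_9504 and tumor_9508 lie well below the rest. The group means were 11.44 ± 0.47 (SD, n = 7) and 9.57 ± 1.02 (SD, n = 8), a difference of 1.88 that the choice of groups fixed.

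Mmp8, the neutrophil collagenase stored beside lactoferrin, was lowest at 8.97, median 10.10 and highest at 10.78 in the Ltf-high group, against 5.50, 7.99 and 9.20 in the Ltf-low group. The groups overlapped for Mmp8 by 1 pair, tumor_9492 lying below tumor_33. Camp, the gene of the antimicrobial peptide cathelicidin, ran from 12.86 through a median of 13.12 to 13.33, against 11.98, 12.52 and 12.78. The Camp values did not overlap, although their means differed by only 0.61, against 2.24 for Mmp8. These 3 genes name the groups and were not tested.

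**Figure D1:**
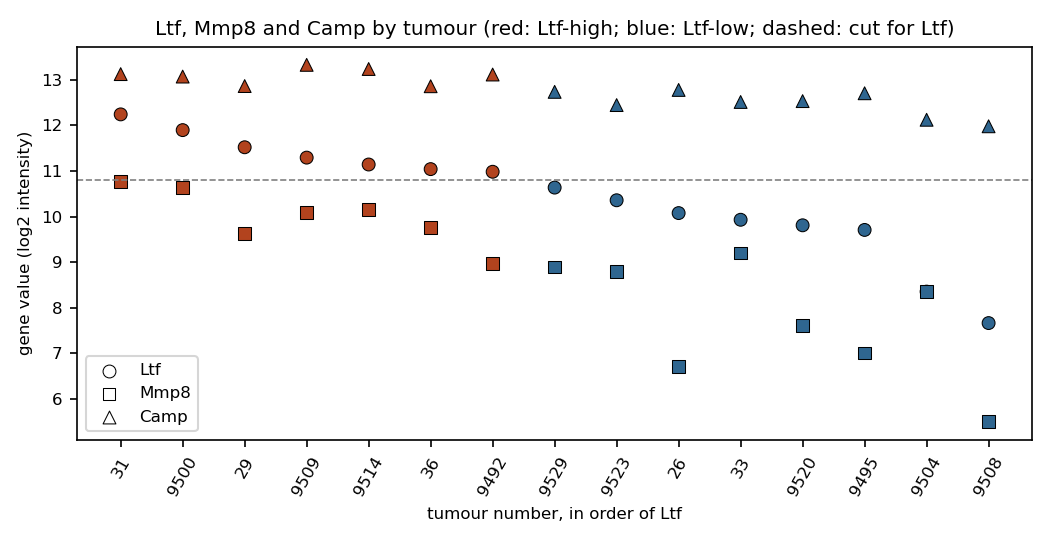
Log2 intensity of Ltf, Mmp8 and Camp (vertical axis) in each of the 15 tumours, ordered by Ltf (horizontal axis), with red symbols for Ltf-high and blue symbols for Ltf-low tumours and the threshold as a dashed line. Ltf falls gradually from 12.24 in tumor_31 to 7.67 in tumor_9508, and Camp stays between 11.98 and 13.33.

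The stretch before the start site is shown for Ltf and Mmp8, which mark the groups, and for Chil1 and Lcn2, secondary granule genes described below. Transcription factors of the C/EBP family, C/EBP epsilon among them, act on secondary granule genes, and a C/EBP-type match is any TTNCNNAA on either strand (TTNNGNAA on the other), with no other motif searched. Each line gives the 250 bases before the start in RefSeq's GRCm38.p6 annotation, 5′ to 3′ on the gene's strand, with the matches in capitals.
Ltf (chr9:111019042-111019291, plus strand): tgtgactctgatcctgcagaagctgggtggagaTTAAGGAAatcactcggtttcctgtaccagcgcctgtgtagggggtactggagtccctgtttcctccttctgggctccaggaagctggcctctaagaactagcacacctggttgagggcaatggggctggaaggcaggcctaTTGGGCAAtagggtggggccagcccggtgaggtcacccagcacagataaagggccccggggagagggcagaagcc
Mmp8 (chr9:7558179-7558428, plus strand): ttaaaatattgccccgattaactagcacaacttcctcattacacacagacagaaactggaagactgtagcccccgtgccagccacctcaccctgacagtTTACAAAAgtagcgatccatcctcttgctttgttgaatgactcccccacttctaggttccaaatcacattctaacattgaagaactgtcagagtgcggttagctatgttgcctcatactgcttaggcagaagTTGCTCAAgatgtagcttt
Chil1 (chr1:134181906-134182155, plus strand): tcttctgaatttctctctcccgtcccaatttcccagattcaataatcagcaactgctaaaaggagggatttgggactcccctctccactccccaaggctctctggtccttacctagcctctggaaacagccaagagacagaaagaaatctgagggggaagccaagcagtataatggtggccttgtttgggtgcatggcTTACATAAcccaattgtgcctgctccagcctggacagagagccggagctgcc
Lcn2 (chr2:32387740-32387989, minus strand): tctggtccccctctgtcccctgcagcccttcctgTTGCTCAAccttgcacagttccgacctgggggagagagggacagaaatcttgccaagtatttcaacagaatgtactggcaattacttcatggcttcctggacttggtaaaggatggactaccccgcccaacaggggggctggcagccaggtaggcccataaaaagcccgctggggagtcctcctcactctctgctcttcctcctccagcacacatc
Ltf and Mmp8 hold 2 matches each, and Chil1 and Lcn2 hold 1 each. A match was found for 7 of the 9 secondary granule genes with a window, and in 36.8% of all 32851 windows of this length. A match describes letters only.

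No other gene differed between the groups past the threshold. Of 9459 genes tested with limma, 0 (0%) had a Benjamini-Hochberg adjusted p under 0.05 in either direction, and the smallest was 0.144, for Adpgk. At an unadjusted p under 0.05, 309 genes were higher in Ltf-high tumours (3.27% of those tested) and 578 were lower (6.11%). The median difference over all tested genes was -0.04, and 3777 genes (39.9%) lay above 0. Differences of at least 1 on the log2 scale were seen for 25 genes (0.264%) in the higher and 14 (0.148%) in the lower direction. Without tumor_9509 and tumor_9514 the count past the threshold was again 0, with a smallest adjusted p of 0.207. The unadjusted counts then turned to 476 higher and 173 lower, so the larger number of lower genes was seen only with these arrays included. The median over all tested genes was then 0.03, with 5439 genes above 0. For tumor_9509 and tumor_9514 against the Ltf-low group that median was -0.23. Leaving out single tumours gave 3 genes higher past the threshold without tumor_9492, and 6 higher and 1 lower without tumor_29. The 3 were Adpgk, Ankrd22 and Inhba. Without tumor_29 the higher genes included Ankrd22, and the lower gene was Pdk1.

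In 4 genes (0.0423% of those tested) every Ltf-high tumour lay above every Ltf-low tumour, and in 0 genes below. They are Adpgk, Ankrd22, Arrb2 and Ngp, and were singled out after their values were seen. Adpgk encodes a glucokinase that uses ADP. Its lowest, median and highest values were 9.20, 9.67 and 10.44 in the Ltf-high group and 7.71, 8.55 and 9.11 in the Ltf-low group. The difference was 1.26 ± 0.21 (SE), or 2.39-fold, with 1.03 among tumours with 4-digit and 1.55 among those with 2-digit numbers. Of its 10 probesets 9 were higher in the Ltf-high group. The limma adjusted p, 0.144 here, was 0.022 after quantile normalization, 0.038 without tumor_9492 and 0.039 without the 2 tumours nearest to the threshold. Without tumor_9509 and tumor_9514 it was 0.207, also after quantile normalization, and it was 0.369 among the 4-digit tumours. Arrb2, the signalling adaptor beta-arrestin 2, lay at 10.40, 10.70 and 11.26 against 9.27, 10.19 and 10.35 (difference 0.67 ± 0.16, limma adjusted p = 0.312). Ankrd22, an ankyrin repeat gene, lay at 6.55, 7.09 and 7.76 against 5.65, 6.27 and 6.45. Its Ltf-low mean is under the detection limit of 6.41, so no fold is given. The limma adjusted p of Ankrd22 was 0.162, and it was 0.038 without tumor_9492 and 0.039 without tumor_29. Ngp is described with the secondary granule genes. Without tumor_9509 and tumor_9514, the 4 genes were joined by 14 more, 18 in all (0.19%), and again 0 lay below.

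Among secondary granule genes, 5 of 7 tested members lay above 0, and the median difference was 0.51, against -0.04 over all tested genes. None passed the threshold, and 5 had an unadjusted p under 0.05 in the higher direction and 0 in the lower. For comparison with this and the lists below, 39.9% of all tested genes lay above 0. At an unadjusted p under 0.05, 3.27% of all tested genes were higher and 6.11% lower. The median was 0.50 without tumor_9509 and tumor_9514, 0.51 within the 4-digit tumours and 0.23 within the 2-digit tumours. This list and the mature neutrophil list were already known to vary together in these tumours, so neither is independent support for the other.

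Ngp, the neutrophilic granule protein, ran from 12.52 through 12.63 to 12.81 in the Ltf-high group and from 10.83 through 12.24 to 12.46 in the Ltf-low group. The Ltf-high tumours lay close together, and tumor_9508 stood far below the other Ltf-low tumours, all of them at 12.07 or above. The difference was 0.56 ± 0.19 (SE, limma adjusted p = 0.436). Lcn2, the siderophore-binding lipocalin, lay at 11.33, 12.52 and 12.77 against 11.06, 11.76 and 12.03, with 6 of 7 Ltf-high tumours above every Ltf-low tumour and tumor_29 as the exception. Its difference was 0.68 ± 0.20, or 1.60-fold. Chil1, a chitinase-like protein gene, lay at 5.93, 6.90 and 8.78 against 5.44, 5.80 and 7.26. Chil1 overlapped widely, and its Ltf-low mean was under the detection limit. Both Cd177 (difference 0.51 ± 0.23), a neutrophil surface protein, and Pglyrp1 (0.37 ± 0.12), which binds bacterial cell walls, were named after their values were seen. The members below 0 were Hp, the haptoglobin gene, at -0.18, and Chil3, another chitinase-like gene, at -0.04.

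Tertiary granule genes had the widest median difference of the 29 lists, 0.74 over 4 tested members, all of them above 0 and 3 with an unadjusted p under 0.05. It was 0.77 without tumor_9509 and tumor_9514 and 0.74 and 0.69 within the 4-digit and 2-digit tumours, but 0.45 with no filter on dim genes, which adds a member. Mmp9, gelatinase B, which breaks down matrix, ran from 8.02 through 8.95 to 10.76 in Ltf-high and from 6.49 through 7.38 to 8.24 in Ltf-low tumours. All but 1 of the Ltf-high tumours lay above every Ltf-low tumour. The difference was 1.67 ± 0.35 (SE), 3.18-fold, and all 17 probesets were higher, but the limma adjusted p was 0.212. Itgam, the integrin chain CD11b of myeloid cells, ran from 8.59 through 9.33 to 10.04 against 7.15, 8.52 and 8.80. Its difference was 1.03 ± 0.24 (adjusted p = 0.245 by limma), and all 31 probesets were higher. The other tested members were Slc11a1, a metal ion transporter of phagocyte granules, at 0.45 with a Ltf-low mean under the detection limit, and the metalloproteinase Adam8 at 0.36.

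**Figure D2:**
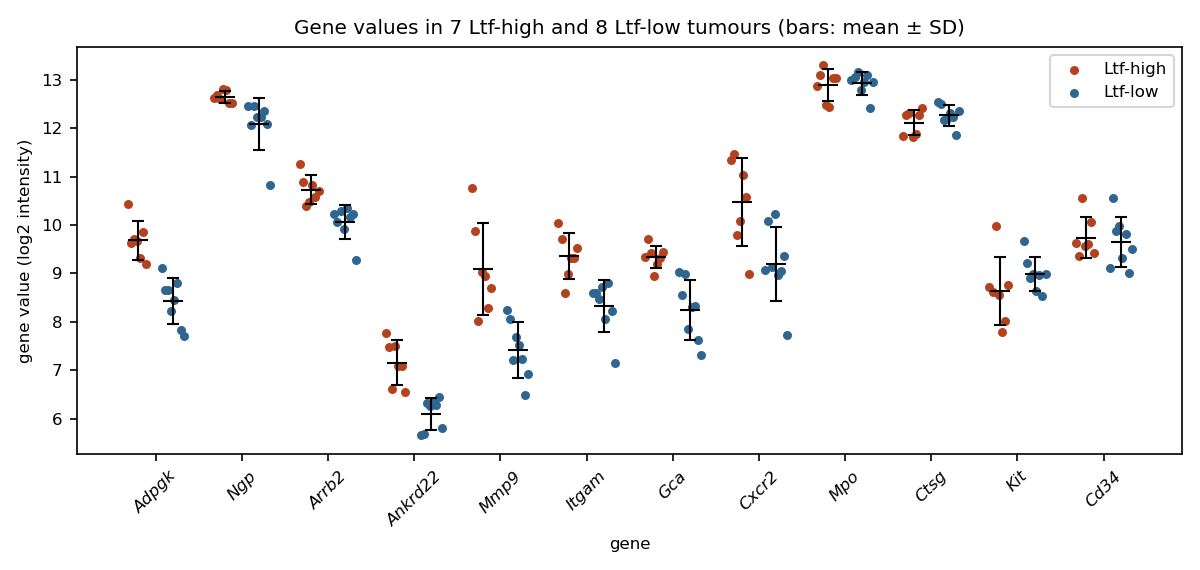
Log2 intensity of named genes (horizontal axis) in each Ltf-high and Ltf-low tumour, 1 point a tumour, with the mean and SD of each group as bars. Adpgk does not overlap between groups, whereas for Mmp9 6 of 7 Ltf-high tumours lie above every Ltf-low tumour.

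Of 21 tested mature neutrophil genes, 16 lay above 0, 0 passed the threshold, and 11 had an unadjusted p under 0.05 in the higher direction and 0 in the lower. The median difference was 0.43, and 0.52 without tumor_9509 and tumor_9514. Cxcr2, the chemokine receptor that draws neutrophils from the marrow, ran from 8.98 through 10.58 to 11.47 against 7.73, 9.10 and 10.23. Its groups overlapped, with 4 Ltf-high tumours above every Ltf-low tumour, and the difference was 1.27 ± 0.38 (SE, limma adjusted p = 0.418). Fpr2, a formyl peptide receptor, lay at 7.55, 10.07 and 10.96 against 7.32, 8.23 and 9.34. Its difference of 1.43 ± 0.48 was 0.99 without tumor_9509 and tumor_9514. Ccr1, a receptor for inflammatory chemokines, differed by 1.29 ± 0.45, but its Ltf-low mean was under the detection limit. Il1b, the interleukin 1 beta gene, and Padi4, which citrullinates histones, were named after their values were seen and differed by 1.13 ± 0.46 and 0.65 ± 0.20. S100a8, a calcium-binding protein and the brightest member, differed by only 0.11 ± 0.08. Csf3r, the receptor for granulocyte colony-stimulating factor, differed by 0.35 ± 0.26, and by 0.66 without tumor_9509 and tumor_9514.

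The NADPH oxidase makes superoxide in phagocytes. Of its 6 tested genes 5 lay above 0 and 4 had an unadjusted p under 0.05 in the higher direction, with a median of 0.49. The median was 0.44 without tumor_9509 and tumor_9514. It was 0.13 for these 2 tumours against the Ltf-low group, where all tested genes had a median of -0.23. The NADPH oxidase median was 0.46 within the 4-digit and 0.10 within the 2-digit tumours. The mean level of the tested members had a median of 9.21 in Ltf-high and 9.20 in Ltf-low tumours. As the median deviation from the means over all tumours, the level was 0.63 in tumor_31, 0.50 in tumor_9500 and 0.33 in tumor_36. The remaining Ltf-high tumours lay between -0.15 and 0.02. Ltf-low tumours ran from -1.06 in tumor_9508 and -0.56 in tumor_9523 to 0.29 in tumor_26. Ncf4, a cytosolic subunit, lay at 7.97, 8.86 and 9.55 against 7.0, 8.09 and 8.41 (difference 0.76 ± 0.25), and overlapped. Ncf1, its partner subunit, differed by 0.59 ± 0.25, and the membrane subunit gene Cyba by 0.55 ± 0.20. Hvcn1, the proton channel that balances the oxidase's charge, was the member below 0, at -0.57 ± 0.29. Pattern recognition genes showed no common direction, with a median of -0.09 and 4 of 9 above 0. Tlr13, a sensor of bacterial RNA, differed by 0.94 and Tlr4, the endotoxin receptor, by -1.06. The Ltf-low mean of Tlr13 and the Ltf-high mean of Tlr4 are under the detection limit.

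Primary granule genes lay on the other side of 0. Their median difference was -0.16 over 7 tested members, 0 had an unadjusted p under 0.05 in the higher and 2 in the lower direction, and the median was -0.05 without tumor_9509 and tumor_9514. Mpo, myeloperoxidase, lay at 12.44, 13.04 and 13.30 against 12.42, 12.98 and 13.16, and the groups overlapped almost wholly. Its difference was -0.04 ± 0.14 (SE), and that of Ctsg, the cathepsin G gene, -0.16 ± 0.13. Ela2, the annotation's symbol for what is probably neutrophil elastase, ran from 9.30 to 11.83 against 8.56 to 11.33 and was not matched to the current symbol, so it is not among the 7. Its difference was 0.36 ± 0.47, with all 6 probesets higher and the groups overlapping. Cst7, a cysteine protease inhibitor, and Ms4a3, a marker of granulocyte progenitors, differed by -0.50 ± 0.17 and -0.48 ± 0.20, and Ctsc, which activates granule proteases, by -0.61 ± 0.43. The Cst7 difference was -0.24 without tumor_9509 and tumor_9514.

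Genes of earlier stages had medians near that of all genes. Of 22 measured stem and progenitor genes, 8 had a mean under the detection limit and were not tested. Of the 14 tested, 0 had an unadjusted p under 0.05 in either direction. Their median was -0.04, equal to that of all genes. Kit, the stem cell factor receptor, lay at 7.80, 8.62 and 9.98 against 8.53, 8.98 and 9.67 (difference -0.36 ± 0.25), and Cd34, a progenitor surface protein, differed by 0.09 ± 0.22. Among 22 myeloid transcription factor genes 3 had an unadjusted p under 0.05 in the higher and 1 in the lower direction, with a median of 0.09. Over all tested genes the shares were 3.27% and 6.11%. Cebpe, which encodes C/EBP epsilon, ran from 9.87 through 10.22 to 10.56 against 9.61, 9.83 and 10.27. Its difference was 0.31 ± 0.12 (adjusted p = 0.48 by limma), and 0.30 without tumor_9509 and tumor_9514. Fli1, an ETS family factor, differed by 0.38 ± 0.12 and Klf6, a zinc finger factor, by 0.47 ± 0.19. The Ltf-high tumours have been called more differentiated. Medians of the secondary granule, tertiary granule and mature neutrophil lists were higher in them, with no single gene past the threshold. The tested stem and progenitor genes had the median of all genes. The groups are therefore named here by Ltf alone.

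**Figure D3:**
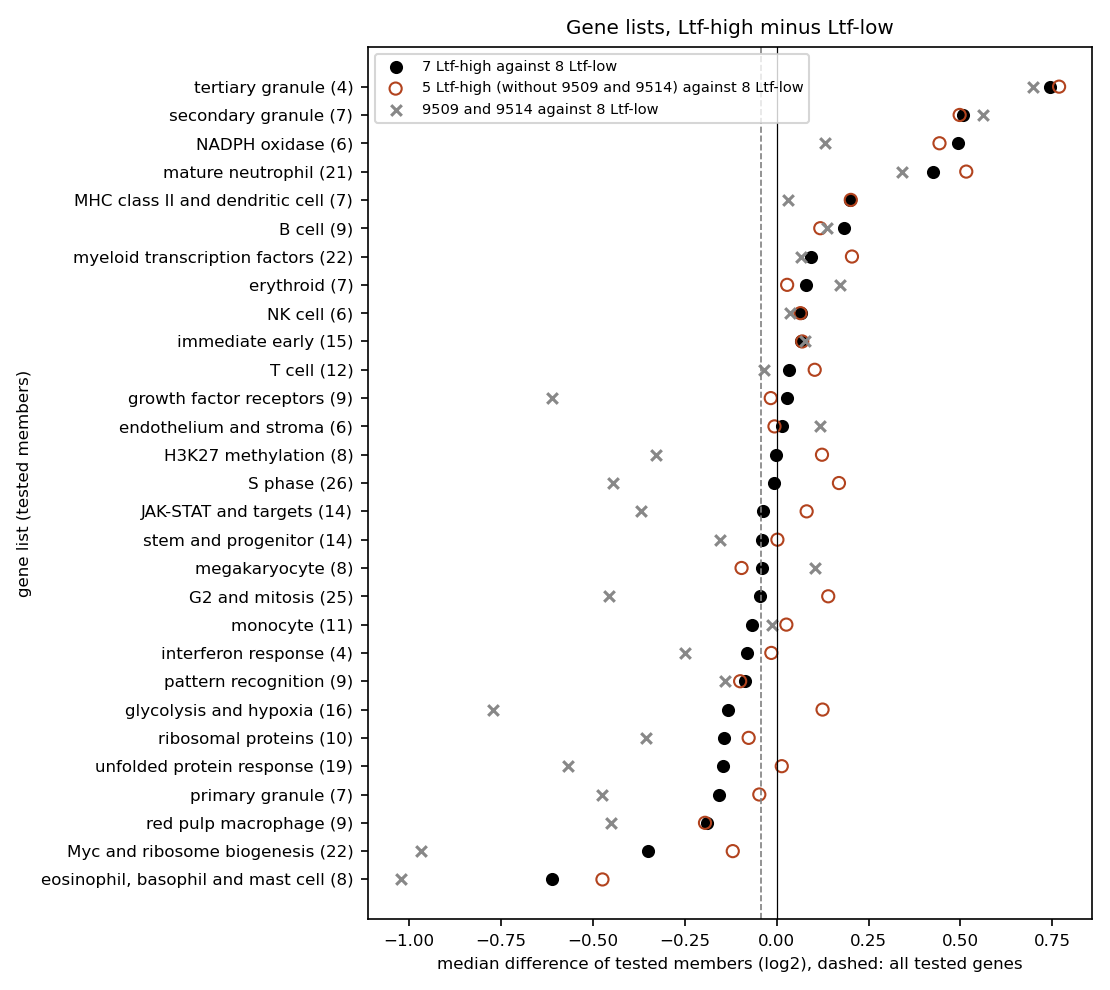
Median difference of the tested members of each gene list, Ltf-high minus Ltf-low on the log2 scale (horizontal axis). Filled points show all tumours, open circles leave out tumor_9509 and tumor_9514, and crosses show these 2 tumours alone against the Ltf-low group. The dashed line is the median of all tested genes with all tumours (-0.04). That median was 0.03 in the version of the open circles and -0.23 in that of the crosses. Tertiary granule (0.74) and secondary granule (0.51) genes lie to the right in all 3 versions, and the Myc list moves from -0.35 to -0.12 without the 2 tumours.

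The growth lists had negative medians, which were larger in tumor_9509 and tumor_9514 than in the other Ltf-high tumours. Of 22 genes of Myc and ribosome biogenesis, 0 lay above 0 and 8 had an unadjusted p under 0.05 in the lower direction, with a median of -0.35. The median was -0.97 for tumor_9509 and tumor_9514 against the Ltf-low group, and -0.12 without them. The median over all tested genes was itself -0.23 for the 2 tumours and 0.03 without them. Nop16, a nucleolar protein, lay at 7.20, 8.84 and 9.10 against 9.0, 9.22 and 9.63 (difference -0.86 ± 0.26), and Rcl1, which acts in ribosomal RNA processing, at -0.68 ± 0.19. Without the 2 tumours these differences were -0.41 and -0.42. Myc itself, a growth regulator, lay at 9.15, 10.78 and 11.77 against 10.70, 11.10 and 11.58, and its difference went from -0.57 to -0.10. The median of ribosomal proteins was -0.14, of the unfolded protein response -0.15 and of glycolysis and hypoxia genes -0.13. Without the 2 tumours they were -0.08, 0.01 and 0.12. The arrays of both tumours also had the lowest median intensities, and the part of this in the growth lists was not tested.

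Medians of proliferation genes lay on different sides of 0 with and without tumor_9509 and tumor_9514, as did the median of all tested genes. With all tumours the median was -0.01 over 26 S phase genes and -0.05 over 25 genes of G2 and mitosis, with 11 members above 0 in each list and 0 of either at an unadjusted p under 0.05. Without the 2 tumours the medians were 0.17 and 0.14, with 19 and 23 members above 0. For the 2 tumours against the Ltf-low group they were -0.44 and -0.46. Over all tested genes the median was 0.03 without the 2 tumours, with 5439 of 9459 above 0, and -0.23 for the 2 tumours. Mki67, the proliferation antigen, differed by 0.24 ± 0.16. Medians were -0.04 for JAK-STAT genes and their targets, 0.03 for growth factor receptors, -0.00 for H3K27 methylation, 0.06 for immediate early genes and -0.08 for the 4 tested interferon response genes. Kdm6a, which removes methyl groups from histone H3, differed by 0.33 ± 0.48, with tumor_9500 at 4.94 and the other Ltf-high tumours at 6.92 or above. In the Ltf-low group, tumor_26 (5.25), tumor_9495 (5.28) and tumor_9520 (5.42) were also low.

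Other cell types of the spleen were followed through their markers. Eosinophil, basophil and mast cell genes had a median of -0.61, with 0 of 8 tested members above 0. In the lower direction 1 had an unadjusted p under 0.05, against 6.11% of all tested genes. The median was -0.47 without tumor_9509 and tumor_9514 and -0.23 within the 4-digit and -0.82 within the 2-digit tumours. Prg2, an eosinophil granule protein, differed by -0.75 ± 0.65 and its relative Prg3 by -1.07 ± 0.82, and the groups overlapped. The mean level of the tested members ranged from 7.58 to 9.21 in Ltf-high and from 7.62 to 9.65 in Ltf-low tumours. Of red pulp macrophage genes 1 of 9 lay above 0 and 2 had an unadjusted p under 0.05 in the lower direction, with a median of -0.19. Adgre1, an adhesion receptor of macrophages, lay at 6.02, 6.86 and 7.15 against 6.57, 7.92 and 9.08 (difference -1.21 ± 0.34), and Cd68, a lysosomal protein of macrophages, differed by -0.76 ± 0.29. Of the 16 measured genes of that list, 7 had a mean under the detection limit. Medians were -0.07 for monocyte, 0.18 for B cell, 0.20 for MHC class II and dendritic cell, 0.03 for T cell, 0.07 for NK cell, 0.08 for erythroid, -0.04 for megakaryocyte and 0.01 for endothelium and stroma genes. Whether the amounts of these cells bear on the granule results was not tested.

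Dab2, an endocytic adaptor, had the largest negative difference among genes named by their likeness to Ltf. It lay at 5.13, 5.83 and 7.79 in the Ltf-high and at 6.49, 8.41 and 9.65 in the Ltf-low group, a difference of -2.07 ± 0.51 (SE, limma adjusted p = 0.312), and all 22 probesets were lower. The Ltf-high mean is under the detection limit, so no fold is given. Fbp1, which encodes a gluconeogenic enzyme, and Penk, the enkephalin precursor gene, differed by -2.12 ± 0.52 and -2.09 ± 0.72. In the other direction, Tceal8 differed by 2.42 ± 0.78 and Akr1e1, an aldo-keto reductase gene, by 2.15 ± 0.64. These 4 were named after their values were seen, and the Ltf-low means of Tceal8 and Akr1e1 are under the detection limit. Akr1e1 was at 4.34 in tumor_9514 and at 7.64 to 8.57 in the other Ltf-high tumours, against a Ltf-low median of 4.98 and highest value of 8.25.

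The split discards the order of tumours within each group, so limma was also fitted with the Ltf value itself as the covariate. It called 22 genes, 21 that rose with Ltf (0.222% of those tested) and 1 that fell (0.0106%), at a limma adjusted p under 0.05. Mrpl54, a mitochondrial ribosome gene, fell by 0.27 per unit of Ltf. The 21 include the granule and adhesion genes Mmp9, Itgam and Ngp, the oxidase subunit Ncf4, and the neutrophil genes Ltb4r1, a leukotriene B4 receptor, Trem1, an amplifier of inflammation, Itgb2l, an integrin chain, and Retnlg, a resistin-like protein. They also include Slc2a3, a glucose transporter, Plbd1, a phospholipase-like granule protein, Gca, the calcium-binding grancalcin, Inhba, which encodes an activin chain, Adpgk and Arrb2. The other 7 are Tmc8, Slfn4, Ceacam2, AB124611, Casd1, Galnt3 and Zfp189. Of the 22, 9 belong to the lists, which hold 334 of the tested genes (3.53%) and were drawn up with earlier results known. Mmp9 rose by 0.79, Plbd1 by 0.82 and Galnt3 by 0.74 per unit of Ltf, where 1 unit is a doubling of Ltf intensity.

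Leaving out tumor_31 and tumor_9508, the highest and lowest in Ltf, lowered the calls to 6 that rose and 1 that fell. Only 5 of the 22 genes were still called, Adpgk, Gca, Itgb2l, Mmp9 and Plbd1, and the gene that fell was then Acy3, an aminoacylase gene, in place of Mrpl54. Leaving out tumor_9509 and tumor_9514 raised the calls to 48 and 1, with 21 of the 22 still called. The 22 kept their direction in both cases. Across the 15 tumours, as a description, Adpgk followed Ltf most closely of the tested genes, which leave out Camp and Mmp8 (r = 0.94, rho = 0.91, and r = 0.92 without tumor_31 and tumor_9508). Itgb2l, Gca and Tmc8 followed at r = 0.93, 0.92 and 0.92, Plbd1 at 0.90 and Ltb4r1 at 0.88. AB124611, Mmp9, Itgam and Slfn4 completed the 10 closest tested genes at 0.87, 0.87, 0.87 and 0.86. Mmp9 kept r = 0.90 without the extreme tumours, while Itgam went to 0.72. Within the groups, Adpgk and Ltf correlated at 0.75 among the 7 Ltf-high and 0.90 among the 8 Ltf-low tumours. The genes most opposed were Mrpl54 (-0.86), Cgref1 (-0.81), Acy3 (-0.78), Mtres1 (-0.78), Hnf4a (-0.77), Zhx1 (-0.76), Dab2 (-0.76), Amigo2 (-0.75), Tas1r2 (-0.75) and Nt5c (-0.74). Between the groups, probesets of Cgref1 (5 higher, 5 lower) and Hnf4a (7 higher, 8 lower) did not share a direction. In the other opposed genes most or all probesets were lower in Ltf-high tumours. The means of Cgref1 (6.42) and Tas1r2 (6.45) lay close to the detection limit of 6.41. All points of a correlation share the arrays and their normalization.

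**Figure D4:**
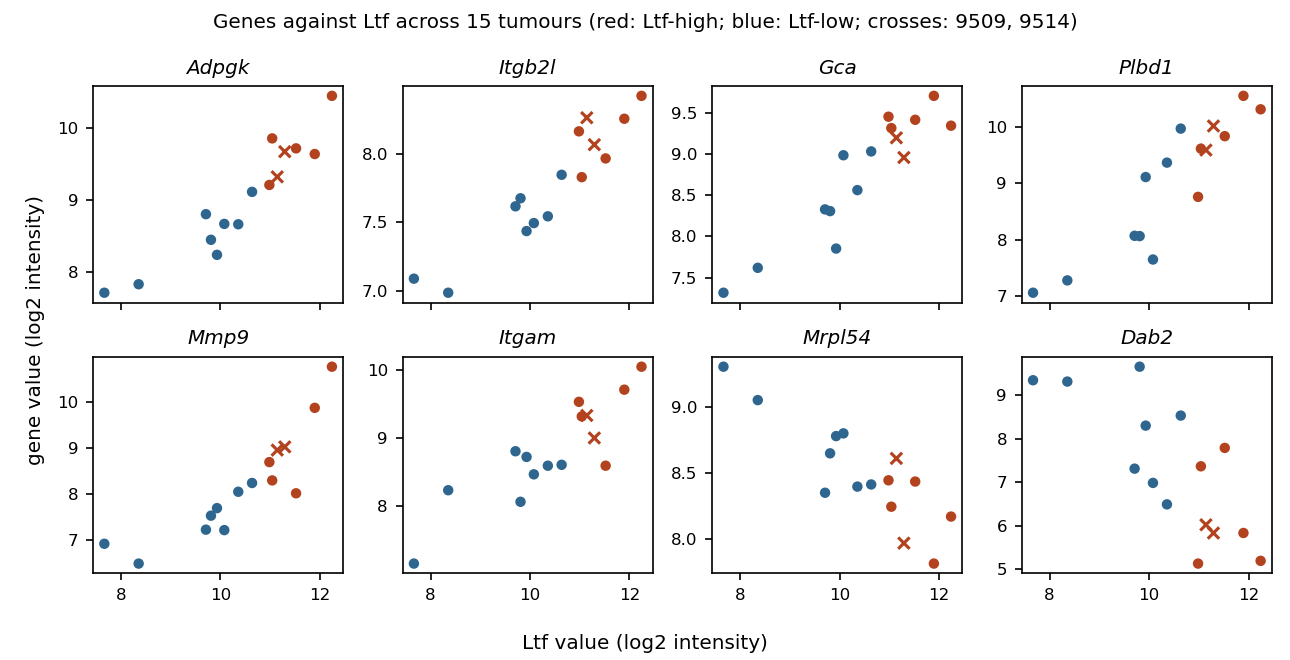
Log2 intensity of named genes (vertical axes) against the Ltf value (horizontal axis), 1 point a tumour, with Ltf-high tumours in red, Ltf-low tumours in blue and tumor_9509 and tumor_9514 as crosses. Adpgk climbs along with Ltf in both groups (r = 0.94), and Dab2 runs the other way (r = -0.76).

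Single tumours carried the late-stage lists unequally. As the median deviation of the tested members from their 15-tumour means, the tertiary granule level was 1.26 in tumor_31 and 0.76 in tumor_9500, but -0.20 in the Ltf-high tumor_29, and was lowest in tumor_9508 at -1.06. The secondary granule level was 0.53 in tumor_31 and -0.23 in tumor_29, against -0.74 in tumor_9508. The mature neutrophil level was 0.70 in tumor_31, 0.60 in tumor_9500 and -0.14 in tumor_9492, against -0.73 in tumor_9508. So tumor_29, the third highest in Ltf, lay below the mean of all tumours in the secondary and tertiary granule lists, and tumor_9492, the lowest of the Ltf-high tumours, in the mature neutrophil list. The primary granule level was lowest in tumor_9514 (-0.45) and tumor_9509 (-0.44) and highest in tumor_9508 (0.39).

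**Figure D5:**
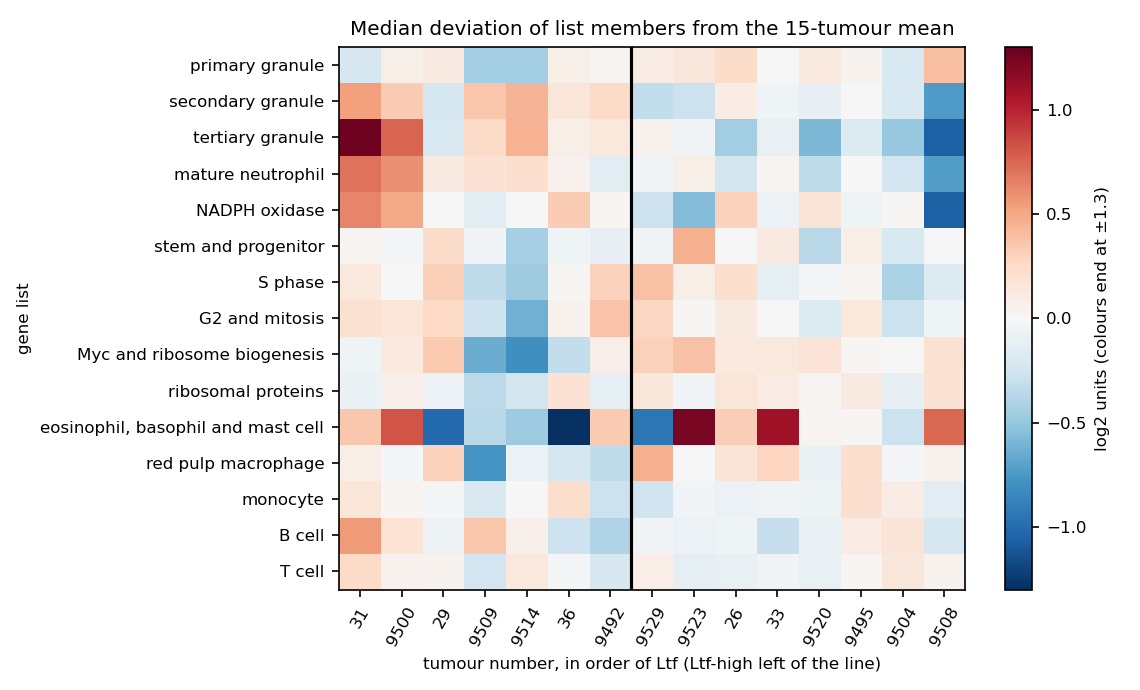
Median deviation from the 15-tumour mean (log2, colour) of the tested members of 15 lists (rows), for each tumour in order of Ltf (columns), with Ltf-high tumours left of the line. Tertiary granule genes are highest in tumor_31 (1.26) and lowest in tumor_9508 (-1.06), and the Myc list is lowest in tumor_9514 (-0.80).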

How the data were processed

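RNA of 15 spleen samples was measured on exon arrays. The deposited values are linear intensities, 1 for each probeset on each array, between 2.38 and 19380.5. They were made with RMA, with mm9 as genome build, per the submitters' processing notes. No 2 arrays held identical values. They were converted to log2 here. Only the 208397 of 229581 probesets with a single gene symbol were used, since 3965 had several and 17219 had none. The RefSeq table for GRCm38.p6 held 14132 of the 16299 symbols, gave current names for 2099, and left 68 unmatched. Each gene was given the median of its probesets (typically 11). Tested were the 9459 genes with at least 3 probesets and a mean above the 40th percentile of genes (6.41, used as the detection limit), without Ltf, Mmp8 and Camp. Promoters come from RefSeq.

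Groups were compared with limma 3.58.1 (lmFit and eBayes, R 4.3.3), two-sided, with Benjamini-Hochberg adjustment over all tested genes and a threshold of 0.05. Lists are described by counts and medians. The groups, the 29 lists and the named genes were chosen with earlier results of these data known. Named were 4 members of each list, the brightest and the 3 that differed most, 14 genes in any case, and the 10 genes with the highest and the 10 with the lowest r with Ltf. Of genes past the threshold, up to 15 in each direction were to be named, and none passed. Genes called in the fit on the Ltf value were also named. Hp, Chil3 and Adam8 were given as the remaining tested members of their lists. Other genes named after their values were seen are marked in the text. Scanner files were not analysed here, and the number of arrays limits the precision.

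Simulated data over 9459 genes had each gene drawn independently with its own mean and SD, and changes planted in random genes. The split found 92% of 100 genes with a planted difference of 1 (log2) and 100% of 100 with a difference of 2. It also called 12 genes without one. For the fit on the Ltf value, the planted change was 1 or 2 (log2) over 2 SD of Ltf. That fit found 88% and 100%, and 5 without one. Measured genes can vary together, and the planted genes were drawn at random, whatever their SD. Tceal8 and Mmp9, which differed by at least 1 in the real data, had SEs of 0.78 and 0.35. These shares therefore do not give the recovery in the real data. There, 25 genes were higher and 14 lower by at least 1, and 0 passed the threshold. Alternatives are given in the closing section. Python 3.11.15, numpy 2.4.6, pandas 2.3.3 and matplotlib 3.10.9 were used.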

Additional observations from a re-analysis of the deposited data

Results flagged for a closer look

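In each named gene and group, a tumour was picked out when its gap to the nearest other tumour was large for the group's whole range. Of 296 gene and group pairs, 18 were picked out, and chance alone picks about 1 in 20 groups.

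Among Ltf-low tumours, tumor_9508 was below all others for Ngp (10.83, others from 12.07), Retnlg (10.10, others from 11.30), Itgam (7.15, others from 8.06), Arrb2 (9.27, others from 9.93) and Herpud1 (7.98, others from 8.55). In tumor_9523, Fbp1 was low (5.82, others from 8.22), as was Jak2 (6.18, others from 7.12), and Chil1 was high (7.26, others up to 6.12). In tumor_9529, Alas2 (6.79, others up to 6.41), Hemgn (7.66, others up to 6.41) and Suz12 (9.92, others up to 9.39) were high.

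Among Ltf-high tumours, tumor_29 was low for Lcn2 (11.33, others from 12.22) and Hnf4a (6.22, others from 6.51) and high for Pdk1 (7.62, others up to 7.01). Casd1 was high in tumor_31 (8.99, others up to 8.48). Akr1e1 was low in tumor_9514 (4.34, others from 7.64), Kdm6a in tumor_9500 (4.94, other Ltf-high tumours from 6.92, although 3 Ltf-low tumours lay at 5.25 to 5.42) and Pcna in tumor_36 (11.63, below all others).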

How the results depend on the processing

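No setting of the split gave more than a few calls. The split called 1 gene higher and 0 lower without the 2 tumours nearest to the threshold, and likewise 1 and 0 with quantile normalization (Adpgk, difference 1.32, adjusted p = 0.022). Leaving out 1 tumour at a time gave 0 to 6 genes higher and 0 to 1 lower: 3 higher without tumor_9492, 6 higher and 1 lower without tumor_29. The fit on the Ltf value called 21 higher and 1 lower. As alternatives added after the data were seen, that fit gave 48 and 1 without tumor_9509 and tumor_9514, 6 and 1 without the highest and the lowest Ltf tumour, and 30 and 3 with quantile normalization. The other settings gave 0 in both directions, and the cause of these differences was not tested. Of 4434 gene values under alternatives, 124 had the other sign. Over these alternatives, secondary granule medians lay between 0.38 and 0.61, tertiary between 0.45 and 1.03 and mature neutrophil between 0.34 and 0.56. The 2-digit tumours alone, not among these alternatives, gave a secondary granule median of 0.23. No paired analysis was possible because the tumours share no replicate numbers and the labels give 1 group. Genes near the detection limit of 6.41 are limited by signal over background.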
